A study of Mus musculus with 15 samples.

Results

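The cytosolic ribosomal proteins were examined in femoral tissue of male mice that had been flown or kept on the ground, with or without a bone defect. Members were the protein-coding mouse genes whose symbol starts with Rpl or Rps and a digit, together with Rplp0, Rplp1, Rplp2 and Rpsa, and without the S6 kinase genes (Rps6k) and Rps19bp1. By this rule 88 of the 21154 genes with a matched probe were members, 55 of the large (60S) and 33 of the small (40S) ribosomal subunit. They had 177 of the 55681 probes of the array, and each gene was represented by the probe with the brightest Cy5 signal. Rpl37 and Rps27rt fitted the rule but had no matched probe. All mice were C57BL/6J males, 9 weeks old in the labels. G-Sham (n = 4) were unoperated mice on the ground and FLT-Sham (n = 4) unoperated mice in flight. G-Surgery (n = 4) and FLT-Surgery (n = 3) received a segmental bone defect (SBD) in the femoral shaft, filled with a polymer and calcium phosphate graft with a collagen membrane soaked in saline around it (SAL in the labels), on the ground or before flight. The labels name the tissue callus, which for a sham animal means the same stretch of an intact shaft. By the study's methods the carcasses were frozen whole and dissected later. The study described its bone RNA as sub-optimal in quality. Mice are named here by group and the animal number of the labels.

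A ribosome is built from ribosomal RNAs and a fixed set of ribosomal proteins, most of them present once in each ribosome. Their mRNAs are among the most abundant of any cell, and most start with a C followed by a run of pyrimidines, the 5′ terminal oligopyrimidine (TOP) tract, through which mTORC1 and Larp1 control their translation. A few members have a second gene with a restricted pattern. Rpl3l replaces Rpl3 in ribosomes of skeletal muscle and heart, Rpl22l1 is a paralog that Rpl22 represses, and Rpl39l and Rpl10l are known from male germ cells. Mouse ribosomal protein genes also have many processed pseudogenes of near-identical sequence, so that a probe may bind transcripts of such copies, and each value is that of a probe.

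On each array the RNA of 1 mouse carried Cy5 and a commercial reference RNA pooled from 11 mouse cell lines carried Cy3. All values below are log2 ratios of Cy5 to Cy3 after the dye normalization of the scanner software, so that 0 is the level of the reference and 1 unit is a 2-fold difference. Between 22.5% and 38.6% of probes were well above background in Cy5. FLT-Surgery 3, FLT-Surgery 5, G-Sham 1 and FLT-Sham 8 had the dimmest members in Cy5, with medians of 279, 348, 362 and 403 background-subtracted units, and FLT-Sham 4 and 6 the brightest, with 1631 and 2038. In Cy3 the medians lay between 114623 and 192137 units, 68.8 to 638 times those of Cy5. Among osteoblast and osteocyte markers Col1a1 was above background on every array, while the median of the 12 markers was between −0.33 and 1.54. The 15 markers of skeletal muscle, a tissue the labels do not name, had medians of 3.43 to 9.46, and 11 to 15 of them were above background on every array. In bulk RNA, fewer cells of a type and less RNA per cell cannot be told apart.

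A C followed by pyrimidines near the annotated start is shown for 4 members named in the comparisons, since most mRNAs of the family start with a TOP tract. Whether the runs shown act as TOP tracts was not tested. The RefSeq promoter table (GRCm38.p6) held 67 of the 88 members. A C followed by at least 4 pyrimidines (C or T), on the sense strand and beginning within 10 bases of the annotated start, was present in 41 of them (61.2%), and in 34.4% of all genes in the table. The lines run from 10 bases before the start, with the longest such run in capitals, and belong to Rps21 (chr2:180257369-180257393, plus strand), Rps26 (chr10:128626492-128626516, minus strand), Rpl22l1 (chr3:28805498-28805522, plus strand) and Rplp2 (chr7:141447641-141447665, plus strand).
Rps21: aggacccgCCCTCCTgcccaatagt
Rps26: gcaagccgccggatCCTCTTTCgag
Rpl22l1: gcgcaagcccgttCTCTTCCCacgg
Rplp2: cagcgtCTTCCTTTCgccgccggac
All 4 runs begin within 4 bases of the annotated start. Another promoter entry of Rps21 had no such run. The median log2 fold change of members with and without a run (40 and 25 tested) was 0.14 and 0.14 in FLT-Sham versus G-Sham, −0.14 and −0.28 in FLT-Surgery versus G-Surgery, 0.10 and 0.078 in G-Surgery versus G-Sham, and −0.039 and −0.27 in FLT-Surgery versus FLT-Sham.

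The sequence before the start of Rpl3l is shown because this gene had the widest range of the members, 9.66, ahead of Rpl7l1 at 8.10, which was above background on 1 array. The 250 bases end at the annotated start (chr17:24727576-24727825, plus strand), with each CANNTG, the E-box letters that muscle regulatory factors recognise, in capitals.
Rpl3l: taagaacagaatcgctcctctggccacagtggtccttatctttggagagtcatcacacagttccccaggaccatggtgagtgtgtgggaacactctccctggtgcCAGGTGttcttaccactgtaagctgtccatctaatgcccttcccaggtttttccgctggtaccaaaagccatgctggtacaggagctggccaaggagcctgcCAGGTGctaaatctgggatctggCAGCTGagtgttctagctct
The window held 3 matches, the nearest to the start being CAGCTG. Another promoter entry of Rpl3l held 1 match and no CAGCTG in its own window. The general motif is searched alike on both strands and was present in the same window of 66.2% of all promoter entries, and CAGCTG in 13.0% of all entries and in 5 of the 79 entries of members (6.33%).

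As a family the members were abundant, and their median lay below the reference on every array in the deposited ratios. After normexp and loess this did not hold, since the mean of the array medians was −0.038 in G-Sham and −0.32 in FLT-Sham but 0.17 in G-Surgery and 0.25 in FLT-Surgery, and 45 members in place of 75 were below 0 in G-Sham. Their Cy5 signal had a median at percentile 98.4 to 98.8 of all probes of an array. The median log2 ratio over members was −0.83 ± 0.06 in G-Sham, −0.85 ± 0.09 in FLT-Sham and −0.73 ± 0.08 in G-Surgery (SD, n = 4 each), and −0.96 ± 0.21 in FLT-Surgery (SD, n = 3). By array it was −0.82, −0.75, −0.89 and −0.84 in G-Sham 1, 3, 4 and 5, −0.77, −0.89, −0.95 and −0.77 in FLT-Sham 4, 6, 8 and 9, −0.69, −0.65, −0.75 and −0.83 in G-Surgery 1, 3, 4 and 5, and −0.77, −0.94 and −1.18 in FLT-Surgery 1, 3 and 5. All 4 groups overlapped, and FLT-Surgery 5 was the lowest of the 15. All probes above background had medians above 0 on the same arrays, from 0.36 to 1.37. Medians by array were −1.18 to −0.59 for 60S members and −1.18 to −0.65 for 40S members. They were not parallel, since G-Sham 1 had −0.66 for 60S and −1.03 for 40S members, and from G-Sham to FLT-Sham the group means went from −0.78 to −0.84 for 60S and from −0.97 to −0.83 for 40S members.

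**Figure D1:**
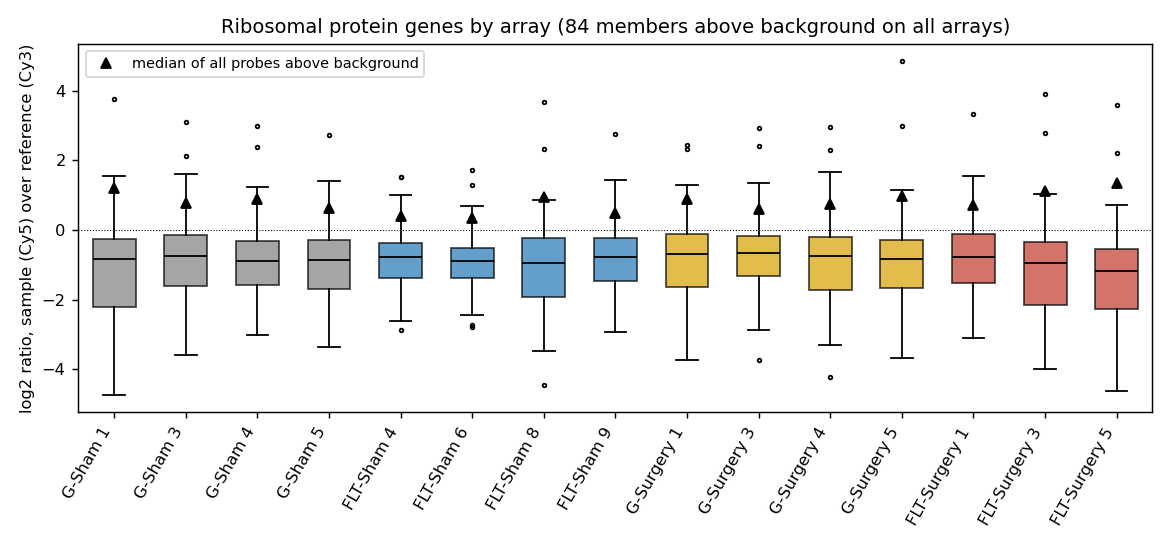
Log2 ratio of Cy5 to Cy3 (vertical axis) of the 84 members above background on all 15 arrays, 1 box per array in the colour of its group (line, median; box, quartiles; whiskers, values within 1.5 box lengths; dots, members beyond), with the median of all probes above background as a triangle. The boxes lie mostly below 0 and the triangles between 0.36 and 1.37, and the boxes of FLT-Sham 4 and 6 are narrower than those of G-Sham 1 and FLT-Surgery 5.

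The members had narrower ranges over the 15 arrays by median than all probes above background throughout. That set was not matched to them in brightness, since the members' median lay at percentile 98.4 to 98.8 of Cy5 signal. The part of brightness in the difference was not tested. Of the 88 genes, 84 were above background on every array, Rpl3l and Rpl39l on 10, Rpl7l1 on 1 and Rpl10l on none. For the 84 the range from the lowest to the highest array had a median of 1.06, and it was under 1 for 30 (35.7%), while all 8349 probes above background throughout had a median range of 1.92, with 9.64% under 1. Rps6, the small-subunit protein that S6 kinases phosphorylate, had the narrowest range, from −1.32 to −0.86. Next came Rpl23a (range 0.56), Rpl19 (0.56), Rps12 (0.57) and Rps25 (0.58). The widest of the 84 were Rps23rg1, a retrogene copy of Rps23 (3.70), Rpl7a (2.91), Rpl39 (2.90), Rps3 (2.38) and Rpl22l1 (2.24), and Rpl3l spanned 9.66.

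Against the reference, 77 of the 88 members had a mean below 0 over the 15 arrays, and 53 were below 0 on each array. Rpl14, Rpl24, Rpl38, Rps23rg1 and Rps3 were above 0 on all 15. In G-Sham the lowest were Rps3a1 at −3.64 ± 0.81, Rps4x at −3.26 ± 0.35, Rpl39 at −2.83 ± 1.04, Rpl30 at −2.81 ± 0.42 and Rpl15 at −2.69 ± 0.42 (SD, n = 4 each). The highest were Rpl3l at 5.36 ± 2.53, where the reference was above background on 1 of 15 arrays so that the size is no measured level, Rps3 at 3.15 ± 0.44, Rps23rg1 at 1.86 ± 0.47, Rpl14 at 1.39 ± 0.17 and Rps16 at 0.74 ± 0.52. These values are ratios within a probe and set no gene's level against another's. They also depended on the probe. For the 47 genes with over 1 probe above background on all arrays, the means of the probes differed by a median of 1.35, and by 4.23 for Rps3, whose chosen probe had a mean of 2.96 and whose other probe −1.27.

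Many single members deviated together on some of the arrays with the dimmest and the brightest Cy5 signal. More than 0.5 from their own mean were 42 of the 84 members on FLT-Surgery 5, 28 on FLT-Sham 6, 25 on G-Sham 1, 22 on FLT-Surgery 3 and 21 on FLT-Sham 4, but 13 or fewer on each other array, among them FLT-Sham 8 with 6 although it is among the dimmest 4. Rps3a1, Rps4x, Rpl30, Rpl39, Rpl26, Rps27a, Rpl22l1 and Rps2 were low on the dimmest arrays and high on FLT-Sham 4 and 6, while Rpl7a, Rps3, Rpl3 and Rpl36a did the reverse. The dimmest 4 arrays come from 3 groups, and the brightest 3 are all FLT-Sham. The part of Cy5 brightness in the members' differences was not tested.

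**Figure D2:**
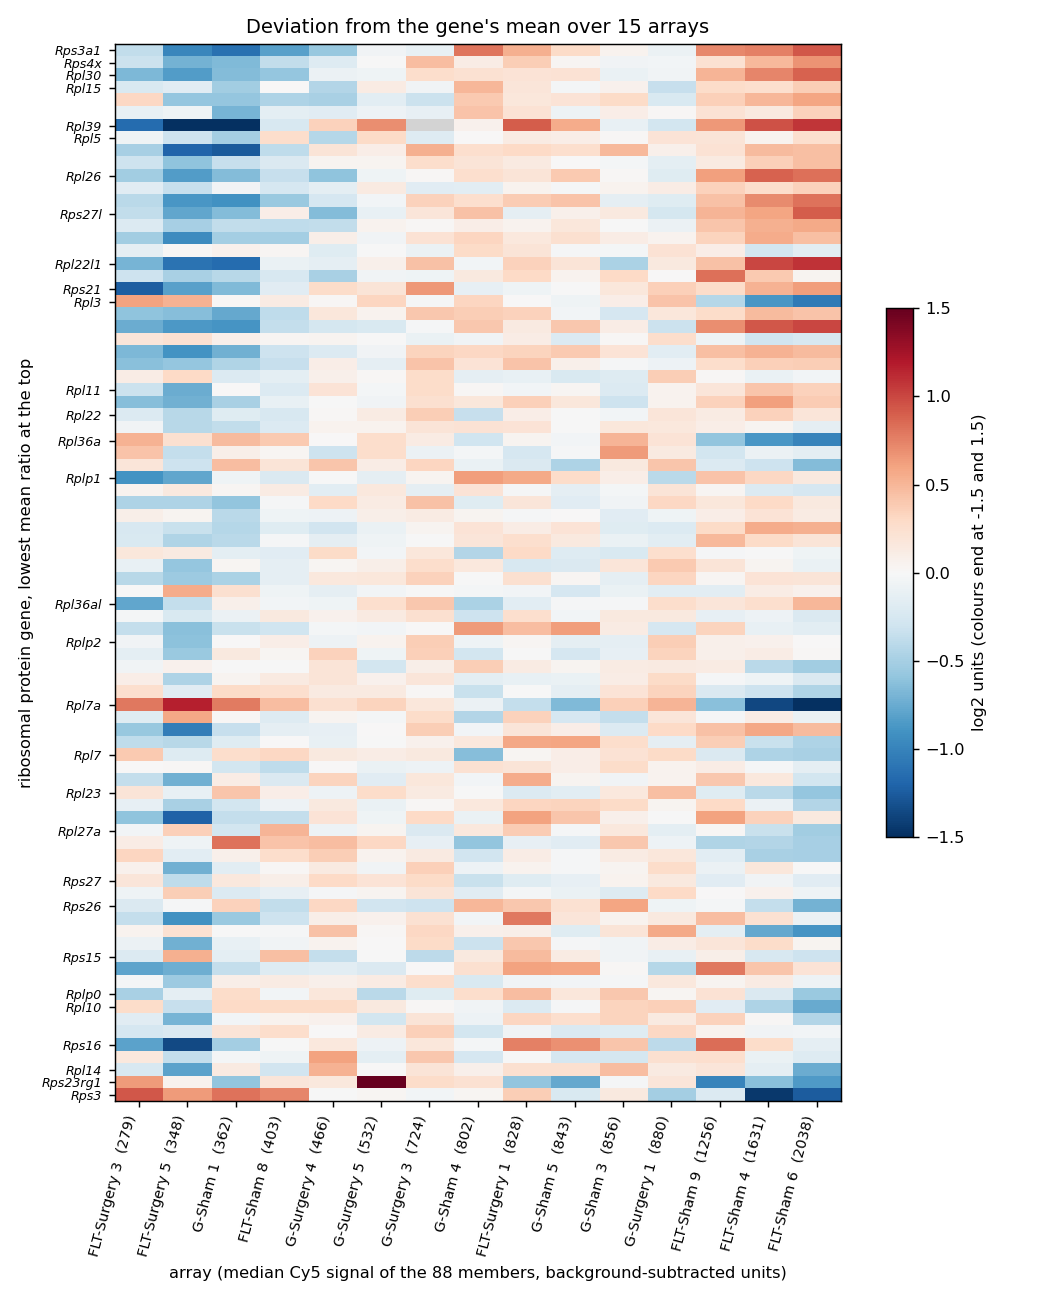
Deviation of each of the 84 members (rows, lowest mean ratio at the top, labelled for the genes named by rule) from its own mean over 15 arrays in log2 units (red above, blue below, grey missing), with the arrays (columns) ordered by the median Cy5 signal of the members, from 279 to 2038 units. Blue and red trade places between the left and the right edge for genes such as Rpl39, Rpl22l1, Rpl7a and Rps3, and the middle columns are pale.

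Spaceflight in unoperated mice was read from FLT-Sham versus G-Sham. Of 86 members tested, 51 were higher and 35 lower in flight, and none passed the study's cut-off, a fold change of at least 2 with an unadjusted p of at most 0.01, which 1.99% of all 19809 probes tested passed. At an unadjusted p of at most 0.05 there were 2 members, Rpl22l1 and Rps26, against 9.65% of all probes. With every array kept and unweighted, no member had an adjusted p of at most 0.05 in any contrast (limma, Benjamini-Hochberg over all probes, as throughout). In this comparison the smallest was 0.502. Weighting the arrays by their spread gave 5 such members here, 29 in FLT-Surgery versus FLT-Sham and 17 in the difference of the spaceflight effects. The median log2 fold change of members was 0.15, beside 0.25 for all probes, with 0.08 for the large and 0.18 for the small subunit. Its direction depended on the scaling, being −0.035 with linear dye scaling alone and −0.34 after normexp background correction and loess, where all probes had medians of −0.087 and −0.079. The arrays of the groups did not overlap for 3 members, Rplp2 and Rps10 being higher and Rps26 lower, beside 4.6% of all probes.

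Rps26, a small-subunit protein at the mRNA exit channel, was 0.18, 0.42, 0.33 and 0.06 in G-Sham 1, 3, 4 and 5 and −0.53, −0.88, −0.53 and −0.20 in FLT-Sham 4, 6, 8 and 9. Every flown sham mouse was below every ground sham mouse. The log2 fold change was −0.78 (SE 0.29, limma adjusted p = 0.502). Rpl22l1 was −2.97, −2.29, −1.86 and −1.63 in G-Sham and −0.81, −0.73, −1.92 and −1.38 in FLT-Sham, a log2 fold change of 0.98 (SE 0.42, limma adjusted p = 0.510). FLT-Sham 8 lay within the G-Sham range and the other flown mice above it. The other members named for size were Rpl3l at 2.48 (SE 1.56), Rpl39 at 0.94 (SE 0.56), Rpl7a at −0.91 (SE 0.54) and Rps3 at −0.73 (SE 0.52), with limma adjusted p between 0.529 and 0.551. With an array left out these were 1.27 to 3.84, 0.44 to 1.235, −1.34 to −0.60 and −1.16 to −0.43 in the same order.

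Spaceflight after SBD surgery was read from FLT-Surgery versus G-Surgery. Here 20 members were higher and 66 lower, with a median of −0.22 beside −0.20 for all probes, and 37.8% of all probes were higher. None passed the cut-off, which 3.13% of all 16601 probes passed, and the smallest adjusted p was 0.280. Rps21, Rps3 and Rpl36al had an unadjusted p of at most 0.05, against 16.4% of all probes. Groups did not overlap for Rps3, which was higher, and for Rpl11, Rpl24, Rpl36, Rpl36al, Rpl37rt and Rps21, which were lower, 7 members in all beside 13.6% of all probes. The members' median was 0.068 after normexp and loess, so that its direction was not fixed.

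Rps21, a small protein of the 40S subunit, was −1.39, −1.09, −1.46 and −1.55 in G-Surgery 1, 3, 4 and 5 and −1.81, −2.98 and −2.56 in FLT-Surgery 1, 3 and 5. All flown operated mice lay below the operated ground mice, FLT-Surgery 1 by the least. The log2 fold change was −1.08 (SE 0.34, limma adjusted p = 0.280). Rps3, a small-subunit protein at the mRNA entry channel that also takes part in DNA repair, was 2.45, 2.92, 2.95 and 2.99 in G-Surgery and 3.33, 3.90 and 3.61 in FLT-Surgery. It was higher in each flown mouse by this probe, with a log2 fold change of 0.78 (SE 0.28, limma adjusted p = 0.281), while its second probe gave 0.09. The other members named for size were Rps15 at 0.48, Rpl27a at 0.33, Rpl3l at −1.93 and Rpl39l at −0.97, with limma adjusted p between 0.394 and 0.500. Leaving out an array gave 0.35 to 0.72, 0.26 to 0.46, −2.54 to −1.07 and −1.50 to −0.33 in the same order.

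The effect of surgery on the ground, G-Surgery versus G-Sham, was small in the members. It shares its arrays with the comparisons above. There were 53 members higher and 33 lower, with a median of 0.09 beside 0.14 for all probes, and −0.02 for members after median centring of each array. None passed the cut-off, which 2.62% of all 17755 probes passed, and the smallest adjusted p was 0.438. Rps10 alone had an unadjusted p of at most 0.05, against 10.9% of all probes. In 8 members, all higher after surgery, the groups did not overlap (Rpl22, Rpl27, Rpl35, Rps10, Rps21, Rps23, Rps25 and Rps9), beside 6.89% of all probes in either direction and 5.33% in that direction. Members named for size were Rpl39l at 1.17, Rps23rg1 at 1.12, Rpl39 at 0.59, where G-Surgery 3 had no value because of an outlier spot and the difference was 0.087 without G-Sham 1, Rpl3l at −2.05, Rps26 at −0.50 and Rplp0 at −0.37, with limma adjusted p between 0.484 and 0.713. For Rps23rg1 a large part of the difference came from G-Surgery 5 at 4.87, and without that array it was 0.49. The other 3 were 2.31 to 2.43 and G-Sham 1.38 to 2.38.

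Of the 4 comparisons of groups, the effect of surgery in flown mice, FLT-Surgery versus FLT-Sham, spread the members the most. It also held the largest fold change of a member, that of Rpl3l, whose size rests in part on signals at background. There were 31 members higher and 55 lower, with a median of −0.23 beside −0.29 for all probes, and 29 members were more than 0.5 from 0. Rpl3l alone passed the cut-off and fell, while 6.63% of all 19187 probes passed it and 6.21% did so by being lower. At an unadjusted p of at most 0.05 there were 3 members, against 24.3% of all probes. Members whose groups did not overlap, as was so for 14.7% of all probes, included Rpl17, Rpl23a and Rps9, which were higher, and Rpl36al and Rps27l, which were lower. The median of members was 0.55 after normexp and loess, where that of all probes was 0.078. Arrays on slide 1 gave a members' median of −0.39 and those on slide 2 of 0.11, so that its direction also differed between the slides.

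**Figure D3:**
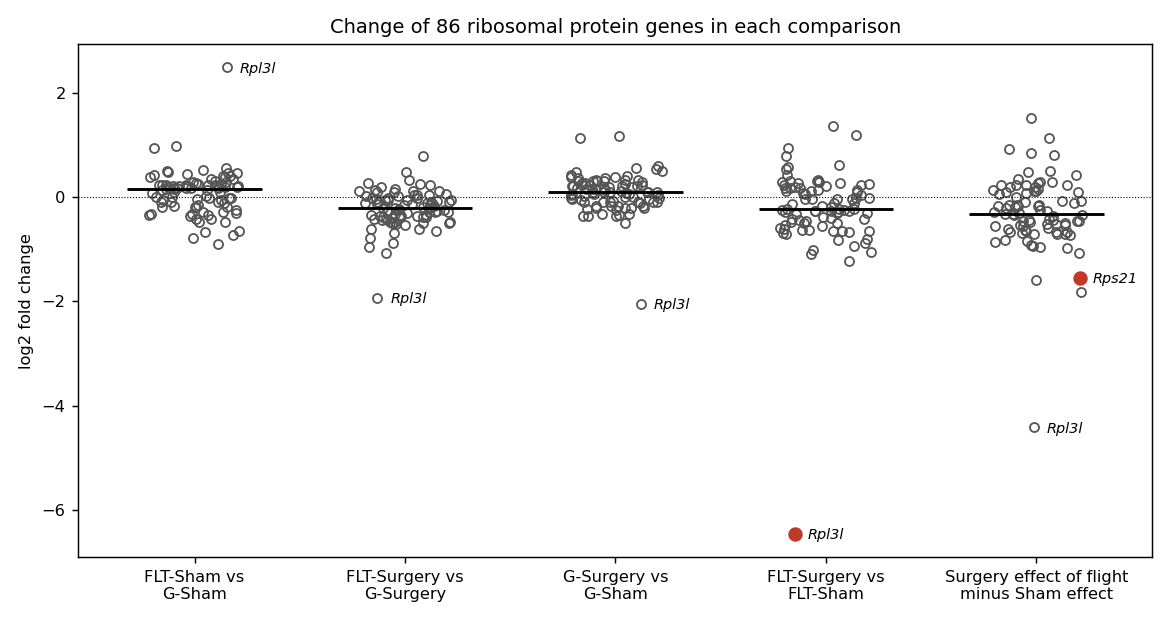
Log2 fold change (vertical axis) of the 86 tested members in the 4 comparisons of groups and in the difference between the spaceflight effects, with the median as a bar, open circles for members short of the cut-off and filled red circles for those past it. Most circles lie within 1 unit of 0, and the filled ones are Rpl3l in FLT-Surgery versus FLT-Sham at −6.46 and Rps21 in the difference of effects at −1.55.

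Rpl3l, the striated muscle form of Rpl3, was 9.25, 9.32, 3.77 and 9.05 in FLT-Sham 4, 6, 8 and 9 and 4.48, 0.03 and −0.34 in FLT-Surgery 1, 3 and 5. It was above background on all 4 FLT-Sham arrays and on 1 of 3 FLT-Surgery arrays, and in the reference channel on 1 of 15. It was therefore tested because of the group in which it is high, and the size of its ratio and of its fold change rests in part on signals at background. FLT-Surgery 3 and 5 lay far below every flown sham mouse, while FLT-Surgery 1 was above FLT-Sham 8, so that the groups overlapped. The fit gave a log2 fold change of −6.46 (SE 1.69, limma adjusted p = 0.144), and −8.01 to −5.59 with an array left out. Over 19 other settings the limma adjusted p ran from 0.00127, with array weights at −8.70, to 0.44. Rpl3l no longer passed the cut-off without FLT-Surgery 3, FLT-Surgery 5, FLT-Sham 4, FLT-Sham 6 or FLT-Sham 9, at log2 fold changes of −5.78, −5.59, −5.99, −5.97 and −6.06. The call was also lost with linear dye scaling at −3.62, after normexp and loess at −4.03, with slide as a block at −5.96 and without the filter on dim probes. On the ground Rpl3l was 1.72, 5.98, 6.20 and 7.55 in G-Sham 1, 3, 4 and 5 and 2.39, 4.96, 1.50 and 4.43 in G-Surgery 1, 3, 4 and 5, above background on 3 and 2 of 4 arrays. The ranges of those groups overlapped.

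The muscle markers moved with Rpl3l. Their median was 8.55, 8.72, 6.58 and 9.13 in FLT-Sham 4, 6, 8 and 9, 7.91, 3.57 and 3.43 in FLT-Surgery 1, 3 and 5, 4.50, 8.89, 8.63 and 9.46 in G-Sham 1, 3, 4 and 5, and 5.24, 8.50, 7.63 and 7.66 in G-Surgery 1, 3, 4 and 5. In FLT-Sham, G-Sham and FLT-Surgery the mouse or mice lowest in the markers were also lowest in Rpl3l, and in G-Surgery the lowest for the markers, G-Surgery 1, was second lowest for Rpl3l. In FLT-Surgery versus FLT-Sham 14 of the 15 markers were lower and 4 passed the cut-off (Acta1, Actn3, Mb and Myh2), with a median of −3.34. The summed Cy5 signal of the 15 ran from 1369403 to 13561250 units in FLT-Sham, 244731 to 2521859 in FLT-Surgery, 859853 to 4595376 in G-Sham and 675713 to 3316436 in G-Surgery. On every array at least 11 of the 15 stayed above background. The part of muscle RNA in the values of Rpl3l was not tested. Other marker lists differed in FLT-Surgery versus FLT-Sham, with medians of −4.44 for erythroid, −4.17 for adipocyte, −2.53 for neutrophil, −1.60 for B cell, −1.24 for cartilage and −0.35 for osteoblast and osteocyte genes, and 0.73 for monocyte and macrophage and 0.24 for cell cycle genes. In FLT-Surgery versus G-Surgery every marker list was lower by its median, from −3.50 for cartilage and −1.76 for skeletal muscle to −0.14 for cell cycle genes. In FLT-Sham versus G-Sham medians ran from 2.71 for adipocyte and 1.83 for erythroid to −0.29 for cell cycle genes.

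**Figure D4:**
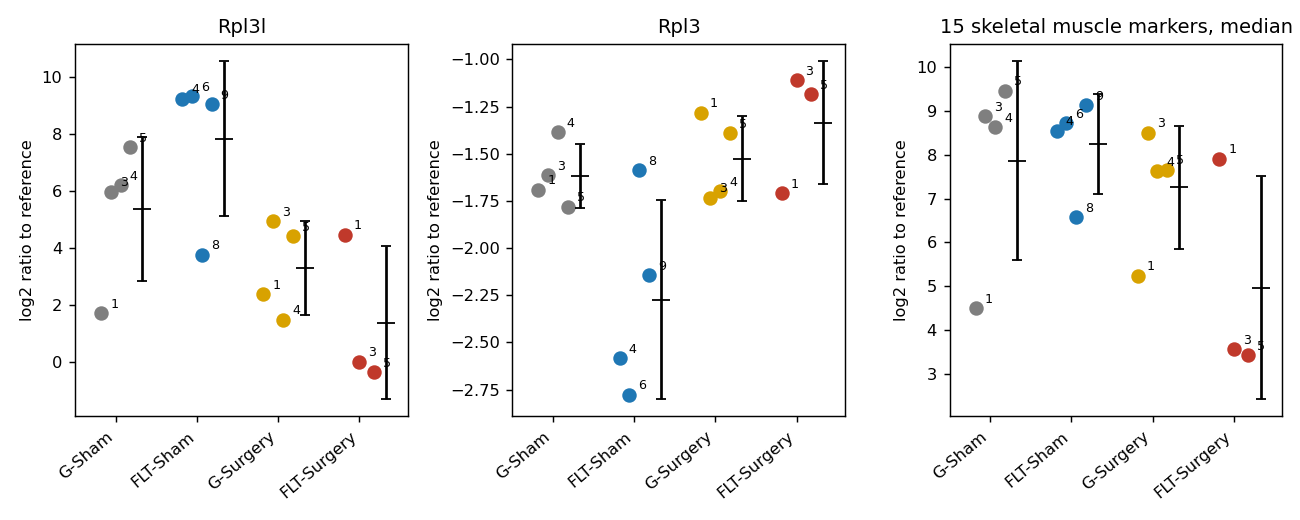
Log2 ratio to the reference of Rpl3l, of Rpl3 and of the median of 15 skeletal muscle markers, 1 point per mouse labelled with its animal number and, beside each group, the mean with its SD as a bar. FLT-Surgery 3 and 5 are lowest for Rpl3l and for the markers, and FLT-Sham 8 is lowest of its group in both.

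Rpl3, the general form of the protein near the peptidyl transferase centre, was −1.69, −1.61, −1.38 and −1.78 in G-Sham, −2.58, −2.78, −1.59 and −2.14 in FLT-Sham, −1.28, −1.73, −1.70 and −1.39 in G-Surgery and −1.71, −1.11 and −1.18 in FLT-Surgery. The flown sham mice with the highest Rpl3l had the lowest Rpl3, and FLT-Sham 8 had the highest Rpl3 and the lowest Rpl3l of its group, which is also the order of their arrays in Cy5 brightness. The log2 fold change of Rpl3 in FLT-Surgery versus FLT-Sham was 0.94 (SE 0.41, limma adjusted p = 0.212).

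Whether the spaceflight effect after surgery differed from that in sham mice was tested on all 15 arrays. Of the 86 members 27 had a more positive and 59 a more negative effect after surgery, with a median difference of −0.33 beside −0.37 for all probes. Rps21 alone passed the cut-off, which 5.34% of all 21869 probes passed and 4.98% in the same direction. At an unadjusted p of at most 0.05 there were 7 members, against 19.5% of all probes, and the smallest adjusted p was 0.172. After normexp and loess the median of members was 0.41 and that of all probes 0.085. The median over members turned its direction under at least 1 setting in all 5 contrasts.

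Rps21 was −2.41, −1.58, −1.86 and −1.75 in G-Sham 1, 3, 4 and 5 and −1.22, −1.11, −1.91 and −1.46 in FLT-Sham 4, 6, 8 and 9. Flown sham mice were thus on average higher than ground sham mice, with overlap, whereas the flown operated mice were below all operated ground mice. The difference of the effects was −1.55 (SE 0.46, limma adjusted p = 0.172), and between −1.87 and −1.28 with an array left out. It was short of the cut-off without FLT-Surgery 3, FLT-Surgery 5, FLT-Sham 4, FLT-Sham 6, G-Sham 1 or G-Surgery 3, at −1.28, −1.49, −1.48, −1.45, −1.38 and −1.46, and it was −0.068 after normexp and loess. The call was also lost after a second loess at −0.94, with Cy5 alone at −0.96, with linear dye scaling at −1.27 and with slide as a block at −1.56. The groups' means were −1.90 ± 0.36, −1.43 ± 0.35 and −1.37 ± 0.20 (SD, n = 4) in G-Sham, FLT-Sham and G-Surgery and −2.45 ± 0.60 (SD, n = 3) in FLT-Surgery. The 2 lowest of the 15 arrays for Rps21, FLT-Surgery 3 and 5, were also the dimmest in Cy5. Other members named for the size of this difference were Rps3 at 1.51, Rpl7a at 1.13, Rps26 at 0.93, Rpl39 at −1.82, Rpl22l1 at −1.59 and Rpl3l at −4.41, with limma adjusted p between 0.200 and 0.371.

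Rpl7a and Rps3 show how far such values rest on a probe. Rpl7a, a large-subunit protein, was 0.33, −0.08, −0.54 and −1.11 in G-Sham 1, 3, 4 and 5, −1.81, −2.19, 0.02 and −1.07 in FLT-Sham 4, 6, 8 and 9, 0.07, −0.28, −0.21 and −0.11 in G-Surgery and −0.80, 0.35 and 0.72 in FLT-Surgery. FLT-Sham 4 and 6 were low and the other groups lay closer to 0. The log2 fold change in FLT-Surgery versus FLT-Sham was 1.35 (SE 0.63, limma adjusted p = 0.230), while its 3 other probes gave −0.20, −0.76 and 0.03. For Rps3 the chosen probe gave 1.19 (SE 0.58, limma adjusted p = 0.239) and the other 0.26. Rpl39, a short protein of the exit tunnel, gave −1.24 (SE 0.67, limma adjusted p = 0.270) and −1.60 by its second probe. Over all members with more than 1 tested probe, every probe of the gene had the same sign in 20 of 50 genes in FLT-Sham versus G-Sham, 29 of 49 in FLT-Surgery versus G-Surgery, 24 of 49 in G-Surgery versus G-Sham and 24 of 51 in FLT-Surgery versus FLT-Sham. Rpl3l, Rpl3, Rps21, Rps26, Rpl22l1 and Rps23rg1 had 1 probe each.

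Members with a second gene were set beside it. Rpl22, which binds RNA and represses Rpl22l1, was −1.30, −1.16, −1.46 and −1.12 in G-Sham, −0.77, −0.93, −1.35 and −0.99 in FLT-Sham, −0.94, −0.75, −1.10 and −0.999 in G-Surgery and −1.02, −1.32 and −1.53 in FLT-Surgery. Rpl22l1 was −1.67, −1.37, −1.95 and −1.74 in G-Surgery and −1.47, −2.51 and −2.93 in FLT-Surgery. Both genes were lowest of their flown group in FLT-Sham 8 and, after surgery, in FLT-Surgery 5, and neither passed the cut-off in any comparison. In G-Sham they did not go together, Rpl22 being lowest in G-Sham 4 and Rpl22l1 in G-Sham 1.

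Rps27l, a p53 target related to Rps27, was −1.44, −1.13, −1.94 and −1.52 in FLT-Sham and −2.16, −2.40 and −2.81 in FLT-Surgery, without overlap and with a log2 fold change of −0.95 (SE 0.37, limma adjusted p = 0.182). The means of Rps27 were −0.30 in G-Sham, −0.32 in FLT-Sham, −0.01 in G-Surgery and −0.36 in FLT-Surgery. Rpl36al was −0.44, −0.29, −0.76 and −0.45 in G-Surgery and −0.86, −1.49 and −1.06 in FLT-Surgery, a log2 fold change of −0.65 (SE 0.27, limma adjusted p = 0.299) without overlap. Its X-linked counterpart Rpl36a gave 0.12 (SE 0.25, limma adjusted p = 0.821) in the same comparison. The other probes of Rpl36a gave −0.91 and 0.19, so that its direction depended on the probe.

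**Figure D5:**
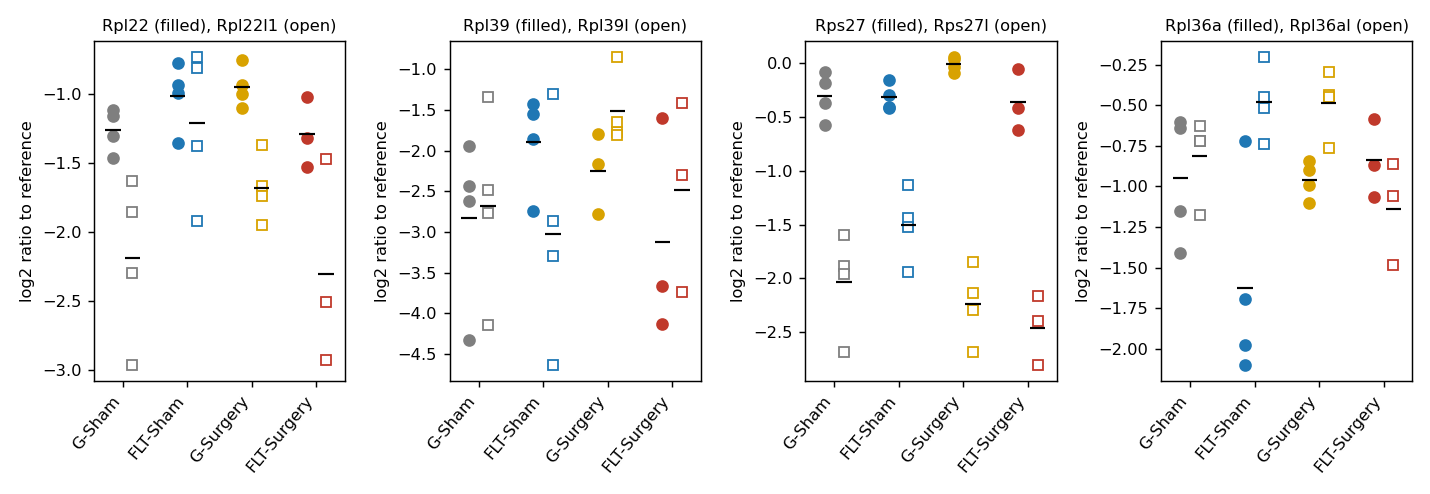
Log2 ratio to the reference of 4 pairs of paralogs in the 4 groups, 1 point per mouse, filled circles for the first gene, open squares for the second, and a bar for each mean. Rpl22 and Rpl22l1 are both low in FLT-Surgery 3 and 5, Rps27l is lower in every FLT-Surgery mouse than in any FLT-Sham mouse, and Rpl39l scatters by more than 2 units within G-Sham, FLT-Sham and FLT-Surgery.

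Rpl39l was above background on 1 of 4 G-Sham, 3 of 4 FLT-Sham, 4 of 4 G-Surgery and 2 of 3 FLT-Surgery arrays, so that its values, from −4.64 to −0.84, rest in part on signals at background. Rpl10l was above background on no array, and Rpl7l1 on G-Sham 5 alone. Rpl10, Rpl7, Rps4x and Rpl26, the general forms of the remaining pairs, passed the cut-off in no comparison. Their means on the ground and in flight, first in sham and then in operated mice, were 0.23, −0.19, 0.29 and −0.01 for Rpl10, −0.38, −0.59, −0.20 and −0.29 for Rpl7, −3.26, −2.86, −3.06 and −3.34 for Rps4x and −2.23, −1.74, −2.44 and −2.62 for Rpl26. Rps4l, a transcribed retrocopy and no member, was above background on no G-Sham array, 3 of 4 FLT-Sham, 4 of 4 G-Surgery and 2 of 3 FLT-Surgery arrays. Rps4l passed the cut-off as higher in G-Surgery versus G-Sham (limma adjusted p = 0.180). It was tested there only because of G-Surgery, the group in which it is high, so that the call is not read as a difference. No fold is given because G-Sham was at background.

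The P stalk proteins recruit elongation factors to the large subunit. Their genes had fold changes of unlike sign in FLT-Sham versus G-Sham, and whether these differ from each other was not tested. Rplp0 was 0.30, 0.43, 0.28 and 0.19 in G-Sham 1, 3, 4 and 5 and −0.20, −0.54, −0.01 and 0.24 in FLT-Sham 4, 6, 8 and 9, with FLT-Sham 9 inside the G-Sham range. Rplp2 was −0.59, −0.73, −0.67 and −0.74 in G-Sham and −0.54, −0.59, −0.50 and −0.52 in FLT-Sham, FLT-Sham 6 and G-Sham 1 being level at −0.59 and the other flown mice higher. The log2 fold changes were −0.43 (SE 0.29) for Rplp0 and 0.15 (SE 0.26) for Rplp2, with limma adjusted p of 0.544 and 0.776, and that of Rplp1 was −0.06 (SE 0.31, limma adjusted p = 0.918).

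Rpl5 and Rpl11, which with 5S rRNA hold back Mdm2 when ribosome assembly fails, and Rpl23, which also binds Mdm2, passed the cut-off in no comparison. Rpl11 was −1.18, −0.95, −1.02 and −1.26 in G-Surgery 1, 3, 4 and 5 and −1.27, −1.56 and −1.97 in FLT-Surgery 1, 3 and 5, all flown mice being lower, FLT-Surgery 1 barely so. Its log2 fold change was −0.50 (SE 0.27, limma adjusted p = 0.371), beside −0.05 (SE 0.29) for Rpl5 and −0.24 (SE 0.26) for Rpl23. Other probes gave −0.0031 and −0.0725 for Rpl11, and 0.25 and −0.26 for Rpl23, so that the lower Rpl11 rests on the chosen probe. The 18 members whose human counterparts are mutated in Diamond-Blackfan anaemia, a failure of red cell production, were 14 higher and 4 lower in FLT-Sham versus G-Sham (median 0.22). They were 4 and 14 in FLT-Surgery versus G-Surgery (median −0.13), 9 and 9 in G-Surgery versus G-Sham (median −0.01) and 4 and 14 in FLT-Surgery versus FLT-Sham (median −0.32). All probes had medians of 0.25, −0.20, 0.14 and −0.29 in this order, and 61.2%, 37.8%, 59.9% and 41.4% of them were higher. The list thus moved much as all probes did. None of the 18 passed the cut-off, which 1.99%, 3.13%, 2.62% and 6.63% of all probes passed.

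Other genes of the translation machinery were counted in FLT-Surgery versus FLT-Sham, where all probes had a median of −0.29. The 8 elongation factors were 2 higher and 6 lower (median −0.26), the 16 subunits of eIF3 and eIF2 6 and 10 (median −0.86), and the 13 genes of eIF4 and its partners 3 and 10 (median −0.66), with none past the cut-off. Of 29 tested ribosome biogenesis genes 11 were higher and 18 lower (median −0.30), also with none past it. The 21 further TOP mRNAs, such as those of elongation factors and Tpt1, were split 10 to 11 with a median of 0.00, and none passed. Of 9 tested RNA polymerase I genes 3 were higher and 6 lower (median −0.80), and Polr1a, its largest subunit, passed at −2.08 (SE 0.58, limma adjusted p = 0.146), but was above background on 4 of 4 FLT-Sham and only 1 of 3 FLT-Surgery arrays, so that the size of the fold rests on signals at background. Taf1c also passed, but no fold is given because it was not well above background on any FLT-Surgery array. Of 9 tested genes of mTORC1 control 2 were higher and 7 lower (median −0.83), and Sesn1, an inhibitor of mTORC1, passed at −1.63 (SE 0.46, limma adjusted p = 0.146), above background on 2 of 3 FLT-Surgery arrays. Polr1a and Sesn1 also passed in FLT-Surgery versus G-Surgery, at −1.94 and −1.16 with a limma adjusted p of 0.280 each, and in the difference of effects, at −2.45 and −1.86 with limma adjusted p of 0.171 and 0.179. For Polr1a these sizes again rest on FLT-Surgery signals at background, and they use the same FLT-Surgery arrays. No gene of these lists passed in FLT-Sham versus G-Sham or in G-Surgery versus G-Sham.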

How the data were processed

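The authors hybridised 15 arrays (Agilent SurePrint G3 mouse), 1 per mouse, on 3 slides, and deposited the Feature Extraction output (version 12.0 per the labels, 12.0.3.1 per the file headers). The deposited files hold spot intensity values of Cy5 and Cy3, background-subtracted and dye-normalized by linear scaling and LOWESS, and the log10 ratio of Cy5 to Cy3. Dyes were not swapped. From these the log2 ratio was computed with no further loess. Outlier spots were set to missing, spots of a probe averaged, and accessions matched to RefSeq symbols (28026 of 55681 probes). A probe was kept if its Cy5 signal was well above background on 3 or more arrays of the comparison. limma 3.58.1 (R 4.3.3) was run on the pair of groups, or on all 15 arrays for the difference of effects, with Benjamini-Hochberg adjustment over all probes tested. The cut-off was the methods' fold change of at least 2 and unadjusted p of at most 0.01. p-values measure the spread between arrays of single mice. The number of arrays limits the precision.

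The members and gene lists were chosen with earlier results of these data known. Members named were those of the P stalk, paralog and 5S lists, the largest changes in each direction (3, or up to 5 past the cut-off) and the 5 highest and lowest in G-Sham. Others named were chosen after their values were seen. Alternatives were a second loess, median centring, linear dye scaling, normexp (offset 50) on median signals with loess, Cy5 alone, 2 filters on dim probes, saturated spots as missing, the series table, slide or replicate number as a block, array weights, all arrays in 1 fit, the mean over a gene's probes and leaving out each array. The fit was tested on simulated data. Some results are not reported here.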

Additional observations from a re-analysis of the deposited data

Results flagged for a closer look

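Chance would set apart about 5.5 of the 110 groups of 4 arrays examined (1 in 20), and 14 held a mouse far from the other 3. Rpl3l was 3.77 in FLT-Sham 8 and 9.05 to 9.32 in the other FLT-Sham mice, and the muscle marker median was 4.50 in G-Sham 1 and 8.63 to 9.46 in the other G-Sham mice. Rps23rg1 was 4.87 in G-Surgery 5 and 2.31 to 2.43 in the others. Rps3a1, a small-subunit protein, was −4.46 in FLT-Sham 8 against −2.93 to −2.72, and −4.22 in G-Surgery 4 against −3.75 to −3.69. Rpl5 was −3.01 in G-Sham 1 against −2.49 to −2.40, Rpl11 −1.43 in G-Sham 3 against −1.22 to −1.20, Rps3 2.45 in G-Surgery 1 against 2.92 to 2.99, Rpl30 −2.47 in G-Surgery 3 against −2.82 to −2.79, and Rpl39l −0.84 in G-Surgery 3 against −1.81 to −1.64. Rpl7l1 was 3.04 in G-Sham 5, its only array above background, against −4.30 to −3.91. Rpl10l, at background on each array, was 1.30 in G-Sham 4, 2.19 in FLT-Sham 8 and 0.22 in G-Surgery 4.

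The spaceflight effect on Rps21 after surgery minus that in sham mice was −1.55 on the log2 scale by the test of the difference itself (limma, 15 arrays), with an adjusted p of 0.172, and 0.00675 to 0.873 over 27 other settings.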

How the results depend on the processing

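Among single genes, 626 settings kept direction and side of the cut-off, 20 lost and 33 gained the cut-off, and 4 turned the direction. The mean over all probes gave Rpl7a 0.070 in FLT-Sham versus G-Sham and −0.20 in the difference of effects, and Rpl27a −0.15 in FLT-Surgery versus G-Surgery, and normexp gave Rpl39l 0.14 there. Array weights, which down-weight arrays by their own spread, gave 18 members past the cut-off in FLT-Surgery versus FLT-Sham (4 higher, 14 lower). In the difference of effects they gave 14 (1 each without weights). Both were the largest counts of any setting. Weights also gave 3 in FLT-Sham versus G-Sham and 1 in FLT-Surgery versus G-Surgery (none without). By limma adjusted p of at most 0.05, weights gave 29, 17 and 5 members in FLT-Surgery versus FLT-Sham, the difference of effects and FLT-Sham versus G-Sham. Leaving out FLT-Sham 8 gave 7 and 3 in the first 2 of these. Shares of all probes are not given for these settings, so that the counts are not read as particular to the members. The cause of the larger counts was not tested.

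In FLT-Sham versus G-Sham linear dye scaling gave 1 member (Rps26) and normexp 2, with medians of −0.035 and −0.34, and leaving out an array 0 to 0, with medians of 0.025 to 0.18. In FLT-Surgery versus G-Surgery detection in both channels and all 15 arrays in 1 fit gave 1 each (Rps21) and slide as a block 2. Medians were −0.053 after median centring and 0.068 after normexp. Leaving out an array gave 0 to 3, with 3 (Rpl22l1, Rpl39, Rps21) without FLT-Surgery 1, and medians of −0.36 to −0.040. In G-Surgery versus G-Sham Cy5 alone gave a median of 0.23, and leaving out an array 0 to 1 member (Rpl39l without G-Sham 3, Rpl3l without G-Sham 1) and medians of 0.05 to 0.13. In FLT-Surgery versus FLT-Sham linear dye scaling, no filter, detection in both channels and slide as a block gave 0, normexp 4 with a median of 0.55, and all 15 arrays in 1 fit 2 (Rpl3l, Rps21). Leaving out an array gave 0 to 3, with 2 without FLT-Surgery 1 and 3 without FLT-Sham 8, and medians of −0.37 to −0.014. In the difference of effects a second loess and slide as a block gave 0, median centring and detection in both channels 2, and normexp 3. Medians were −0.11 after median centring, −0.16 with linear scaling and 0.41 after normexp. Leaving out an array gave 0 to 5, with 5 without FLT-Surgery 1 and 3 without FLT-Sham 8, and medians of −0.47 to −0.17.

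Group means of the array median (sham on the ground and in flight, then surgery on the ground and in flight) were −1.48, −1.55, −1.50 and −1.57 after median centring, −1.71, −1.75, −1.56 and −1.82 with linear scaling and −0.038, −0.32, 0.17 and 0.25 after normexp, which put 45 members below 0 in G-Sham in place of 75. The level below the reference therefore depended on the processing. The normexp setting changed the background correction, the signals used and the loess together, and their parts were not tested apart. Same-numbered mice did not deviate together (r between −0.36 and 0.24 in FLT-Surgery versus G-Surgery and between −0.16 and 0.35 in G-Surgery versus G-Sham), and the number as a replicate block gave 0 members past the cut-off in both, with medians of −0.22 and 0.09. Dim Cy5 signals on FLT-Surgery 3 and 5 limit what can be read from 3 FLT-Surgery arrays. The RNA was of sub-optimal quality by the study's account, and its part in these values was not tested.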
